A study of Mus musculus with 22 samples.

Results

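The 38 genes described here encode the extracellular matrix of the heart and the proteins that organise it. They are 5 chains of fibrillar collagens, 6 basement membrane components, 5 chains of other collagens, 6 elastic fibre proteins, 8 matricellular and adhesive glycoproteins, 5 proteoglycans and 3 crosslinking enzymes. They were taken by gene symbol from a given list, drawn up with earlier results of these data known, and all 38 were found among the 30735 genes measured in every library. The RNA came from the left ventricle of FVB mice aged 3 to 5 months. Some were wild type (WT) and the others, VCP TG, bore a transgene of valosin-containing protein, an ATPase that extracts ubiquitinated proteins for degradation. The operation was either transverse aortic constriction (TAC), in which the aorta is tied to a smaller bore so that the left ventricle pumps against raised pressure, or a sham. At 2 weeks after surgery there were 3 VCP TG TAC, 4 WT TAC, 4 VCP TG sham and 4 WT sham libraries, and at 5 weeks there were 3 VCP TG TAC and 4 WT TAC libraries. A 5-week sham group was not analysed here, so the 5-week data compare genotypes after TAC only. The sources used here name neither the promoter of the transgene nor the number of founder lines.

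Cardiac fibroblasts make most of the fibrillar collagen of the heart, in which collagen I gives stiffness and collagen III gives a looser network around muscle bundles. Sustained pressure load is widely known to raise collagen I, collagen III, fibronectin and periostin in the ventricle as fibroblasts become myofibroblasts. Basement membranes, built of collagen IV, laminin and nidogen, surround cardiomyocytes and capillaries and are made by endothelial, muscle and mural cells as well as fibroblasts.

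The stretch of 250 bases before the annotated start is shown for 3 members whose values recur below and whose window holds no annotated exon. The sequences are RefSeq windows on GRCm38.p6, read 5′ to 3′ on the gene's strand. They lie at chr1:45311288-45311537 on the plus strand for Col3a1, at chr3:54360857-54361106 on the plus strand for Postn and at chr1:90843972-90844221 on the minus strand for Col6a3. Capitals mark the motif TATAAA, searched on both strands.
Col3a1: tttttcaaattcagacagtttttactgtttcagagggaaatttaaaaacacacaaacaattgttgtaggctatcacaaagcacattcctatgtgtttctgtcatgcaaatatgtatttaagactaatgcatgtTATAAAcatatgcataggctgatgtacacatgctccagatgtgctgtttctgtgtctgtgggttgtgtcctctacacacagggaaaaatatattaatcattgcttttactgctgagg
Postn: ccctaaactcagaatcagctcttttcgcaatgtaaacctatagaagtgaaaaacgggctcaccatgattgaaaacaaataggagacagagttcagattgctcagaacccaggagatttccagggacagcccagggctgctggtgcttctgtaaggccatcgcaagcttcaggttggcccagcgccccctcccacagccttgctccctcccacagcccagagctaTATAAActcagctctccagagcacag
Col6a3: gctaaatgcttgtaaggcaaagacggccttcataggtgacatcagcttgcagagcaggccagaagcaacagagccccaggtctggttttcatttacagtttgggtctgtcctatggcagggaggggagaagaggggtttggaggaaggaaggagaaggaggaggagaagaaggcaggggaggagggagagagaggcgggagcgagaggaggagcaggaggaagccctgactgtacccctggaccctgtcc
Postn has a pair of annotated windows, of which the one farther downstream is shown. The motif began 26 bases before the start in Postn and 117 bases before it in Col3a1, and it was not found in the Col6a3 window. Of the 38 members, 23 had a window in the RefSeq table, 27 windows in all. TATAAA was in 14.8% of these 27 windows (those of Col3a1, Postn and Tnc) and in 12.4% of all 32851 windows. GGGCGG, on either strand, was in 59.3% of the 27 windows of members and in 32.7% of all windows. CCAAT, on either strand, was in 22.2% of the 27 windows of members and in 33.8% of all windows. These counts describe letters in the windows, and no factor's binding was measured.

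Levels are in TPM, a measure of transcripts scaled by their length in which each library sums to 1000000, so levels of different genes can be compared. The read depth is unknown, and samples labelled as replicates are not said to come from separate animals, so a p-value here reflects the spread among these libraries, which may be technical. The mitochondrially encoded genes took between 27.9% and 72.9% of the TPM of a library. Myl2, the ventricular myosin light chain, was high in every library (2293 to 7387 TPM), while Myl7, the atrial light chain, was over 300 TPM in 4 libraries of the 2-week table: VCP TG TAC replicate 2, WT TAC replicate 1, and VCP TG sham replicates 3 and 4. Vcp was 135, 125 and 151 TPM in the VCP TG 2-week TAC libraries and 119, 48.2, 47.7 and 50.3 TPM in the WT 2-week TAC libraries. It was 89.1, 186, 156 and 73.5 TPM in VCP TG sham and 62.9, 82.6, 57.2 and 45.7 TPM in WT sham. At 5 weeks it was 118, 108 and 39.1 TPM in VCP TG TAC and 62.2, 123, 107 and 47.7 TPM in WT TAC. On a scale of nuclear protein-coding genes only, 5 libraries fell on the other genotype's side of a division at 236 TPM: VCP TG sham replicate 1, WT 2-week TAC replicate 1, WT 5-week TAC replicates 2 and 3, and VCP TG 5-week TAC replicate 3. Genotype below therefore means the genotype on the label, and the counts of negative differences are also given without them. The sources used here do not say whether RNA of the transgene is counted as Vcp.

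The 38 genes spanned a wide range of levels. The most abundant were the small leucine-rich proteoglycans decorin (Dcn, 145 to 589 TPM across the 22 libraries) and biglycan (Bgn, 66.2 to 447 TPM), which coat collagen fibrils, and the collagen-binding glycoprotein Sparc (66.0 to 273 TPM). These 3 genes made up 40.8% to 68.5% of the summed level of the 38. The next were basement membrane chains, with medians of 49.6 TPM for Col4a1, 38.8 TPM for Col4a2 and 36.4 TPM for the laminin chain Lamc1. Among fibrillar collagens Col3a1 had the highest median, 31.2 TPM, against 15.5 TPM for Col1a2 and 12.5 TPM for Col1a1. The lowest was tenascin C (Tnc), a glycoprotein of remodelling tissue, with a median of 0.446 TPM and a highest value of 2.18 TPM. The members that varied most across libraries were fibromodulin (Fmod, 66.9-fold between the lowest and highest library), Thbs1 (59.2-fold) and cartilage oligomeric matrix protein (Comp, 48.9-fold), and the steadiest was Lamb1 (3.06-fold).

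The other members filled the middle of the range, with medians from 1.21 TPM for the cartilage intermediate layer protein Cilp to 27.6 TPM for nidogen 1 (Nid1), which links laminin to collagen IV. Of the elastic fibre group, the fibulins Fbln1 and Fbln2 (17.4 and 17.3 TPM) and Mfap5 (12.6 TPM) lay above Fbn1 (7.40 TPM), which forms the microfibril backbone, and elastin itself had 2.53 TPM. Among proteoglycans lumican (Lum, 13.9 TPM) and versican (Vcan, 7.75 TPM) followed Dcn and Bgn. The crosslinking enzymes were low, with 5.60 TPM for Loxl1, 4.28 TPM for Loxl2 and 1.70 TPM for Lox. The annotated spans of 16 members, introns included, overlap the span of a gene on the opposite strand. Overlap of exons was not examined, and the sources used here do not say whether the counting used strand.

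The summed level of the 38 genes varied more within some groups than between them. It was 962, 1206 and 882 TPM in VCP TG 2-week TAC, 2180, 788, 946 and 1060 TPM in WT 2-week TAC, 930, 1096, 1947 and 795 TPM in VCP TG sham, and 1155, 1175, 1130 and 988 TPM in WT sham. WT TAC replicate 1 was the highest of its group in 35 of 38 members, against 41.7% of all genes averaging at least 1 TPM in that group. VCP TG sham replicate 3 was the highest of its group in 38 of 38 members, against 65.0% of such genes, and VCP TG sham replicate 4 was the lowest in 27 of 38, against 81.1%. Replicate 1 of WT TAC and replicate 3 of VCP TG sham also had the most Myl7 of their groups, 1546 and 2269 TPM, and the part of atrial tissue in these levels was not tested. The mitochondrial share of VCP TG sham replicate 4 was 72.9%, the highest of all libraries. Rescaled to nuclear protein-coding genes, the sums were 1841, 3135 and 2069 TPM in VCP TG 2-week TAC and 6332, 2364, 2943 and 3115 TPM in WT 2-week TAC. On that scale they were 2241, 3022, 4440 and 3372 TPM in VCP TG sham and 3350, 2902, 3365 and 3495 TPM in WT sham. VCP TG sham replicate 4 was then not the lowest of its group.

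**Figure D1:**
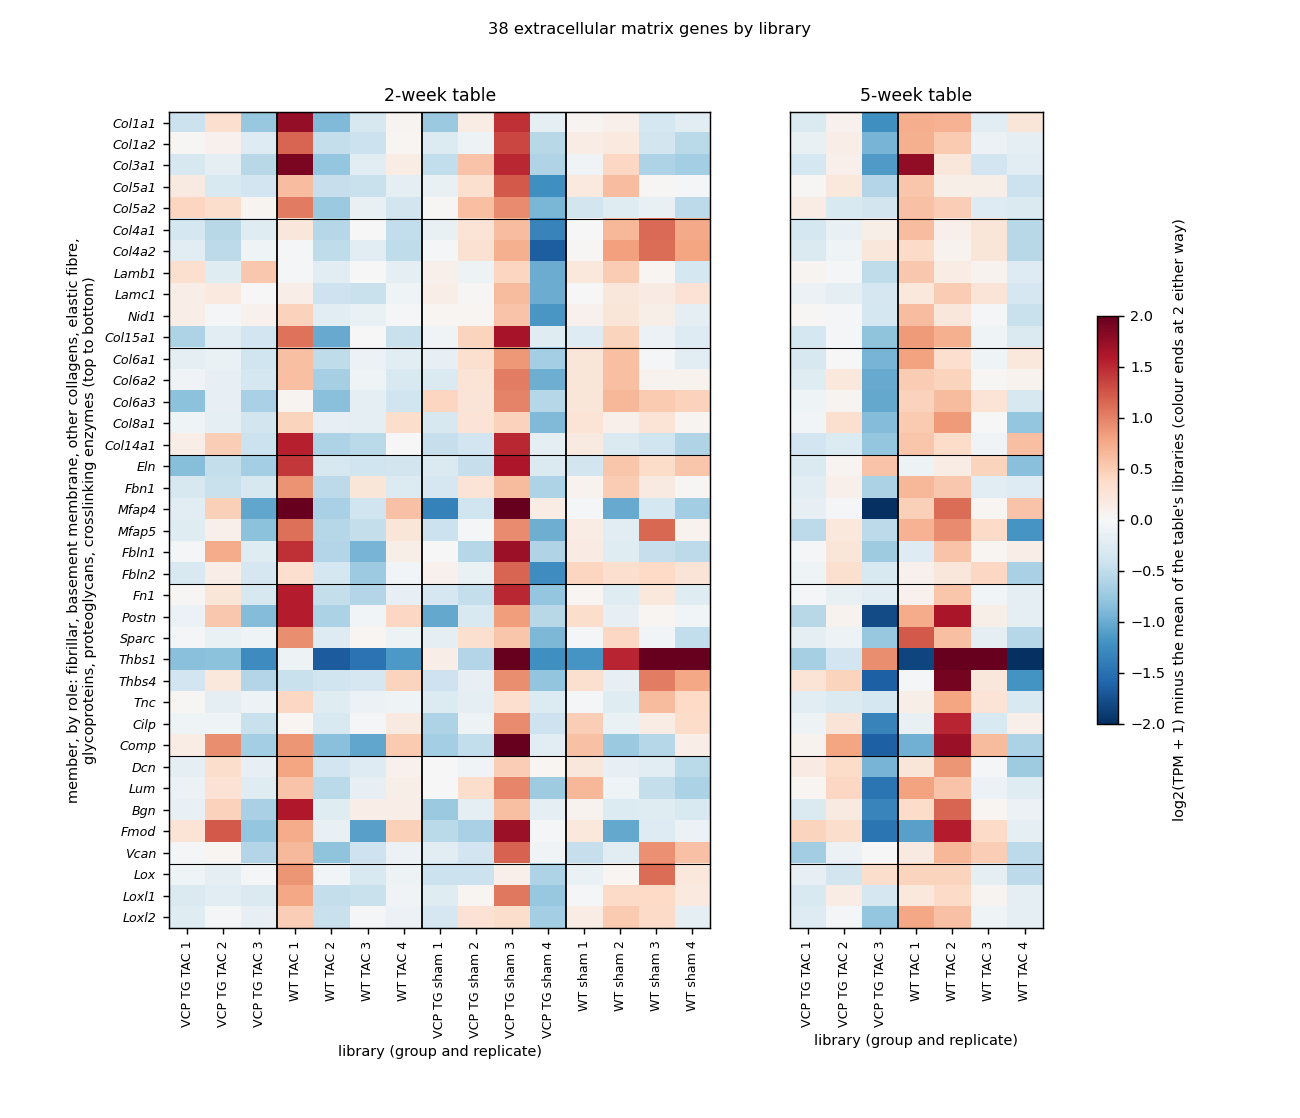
Each row is 1 of the 38 matrix genes, each column a library, and colour gives log2(TPM + 1) minus the mean over the libraries of the same table (15 libraries at 2 weeks, 7 at 5 weeks), from blue (lower) to red (higher). WT 2-week TAC replicate 1 and VCP TG sham replicate 3 are red in most rows, and VCP TG 5-week TAC replicate 3 is blue in most rows.

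Whether pressure load changed the matrix genes in wild-type ventricle was asked with the WT 2-week TAC and WT sham libraries. The data show no rise of the fibrillar collagens, fibronectin or periostin that exceeded the spread between libraries, and the clearest differences were lower levels of the collagen IV pair Col4a1 and Col4a2, of the collagen VI chain Col6a3 and of thrombospondin 1 (Thbs1) after TAC. None of the 37 members tested passed a Benjamini-Hochberg adjusted p of 0.05 in limma's test over 15540 genes, and neither did any gene of the table (0%); the smallest adjusted p of a member was 0.364. At an unadjusted p under 0.05, 4 of the 37 were lower and 0 higher, against 8.47% of all genes lower and 2.94% higher, so the members' share was near that of all genes. The median log2 difference of the 38 was -0.15, beside -0.13 over all genes tested; quantile normalization gave 0.02 and -0.01, with 19 members on each side of 0. In bulk tissue, fewer cells of a type and less RNA per cell cannot be told apart.

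Col1a1, which encodes the alpha 1 chain of collagen I, was 41.9, 5.92, 9.22 and 12.2 TPM in WT 2-week TAC, against 12.1, 12.7, 8.93 and 9.84 TPM in WT sham. Col1a2, its partner chain, was 36.5, 11.0, 11.5 and 16.2 TPM in WT TAC, against 17.6, 18.2, 11.9 and 10.5 TPM in WT sham. Col3a1, the single chain of collagen III, was 136, 20.8, 31.0 and 39.9 TPM in WT TAC, against 34.4, 48.2, 23.1 and 22.0 TPM in WT sham. In all 3 genes replicate 1 of WT TAC stood alone above the other libraries, and the other WT TAC libraries overlapped WT sham. The log2 differences were 0.26 ± 0.50 (SE) for Col1a1, 0.22 ± 0.38 for Col1a2 and 0.50 ± 0.52 for Col3a1, each within its error. Without WT TAC replicate 1, 35 of the 38 members had a negative difference, against 23 of 38 (and 64.2% of all genes) with it, and the median was -0.34 beside -0.16 over all genes. Col5a1 and Col5a2, chains of the collagen V that nucleates fibrils, differed by -0.32 ± 0.38 and 0.26 ± 0.37.

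Fibronectin (Fn1), an adhesive protein deposited early in scar formation, was 58.1, 13.4, 12.3 and 16.8 TPM in WT TAC, against 19.6, 15.9, 22.0 and 15.9 TPM in WT sham. Periostin (Postn), a marker of activated fibroblasts, was 57.1, 11.7, 17.9 and 25.2 TPM in WT TAC, against 24.1, 16.6, 19.1 and 17.9 TPM in WT sham. In both genes replicate 1 of WT TAC lay far above every sham library and the other WT TAC libraries did not. The differences were 0.14 ± 0.47 for Fn1 and 0.28 ± 0.44 for Postn on the log2 scale. The elastic microfibril protein Mfap4 had the largest positive difference, 1.04 ± 0.79, with 57.2, 5.24, 6.42 and 13.6 TPM in WT TAC and 8.63, 3.89, 6.70 and 5.06 TPM in WT sham, overlapping groups in which replicate 1 again was far above the rest. The differences of Col1a1, Col1a2, Fn1 and Postn each changed sign in 5 of 19 alternative settings and that of Col3a1 in 4 of 19, while Mfap4 stayed positive (0.18 to 1.43).

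Col4a1 (chr8:11198423-11312826, minus strand) and Col4a2 (chr8:11312805-11449287, plus strand) encode the chains of the main collagen IV network and lie head to head, sharing 22 bases at their starts on GRCm38. Col4a1 was 53.2, 30.1, 45.5 and 31.8 TPM in WT TAC, against 45.5, 72.7, 100.3 and 77.4 TPM in WT sham. Col4a2 was 33.7, 24.1, 29.4 and 24.0 TPM in WT TAC, against 35.2, 62.1, 76.6 and 60.6 TPM in WT sham. Every WT TAC library was below every WT sham library in Col4a2, while in Col4a1 replicates 1 and 3 of WT TAC reached the level of WT sham replicate 1. The log2 differences were -0.85 ± 0.35 for Col4a1 and -1.01 ± 0.37 for Col4a2, with limma adjusted p of 0.385 and 0.365. The other basement membrane members, Lamb1, Lamc1, Nid1 and Col15a1, differed by -0.37 to -0.04 and none reached an unadjusted p under 0.05. Of 14 endothelial markers, none of which was listed at 0, 0 passed the adjusted threshold. Of the 14, 13 had a negative difference (median -0.46), against 64.2% of all genes, and 3 were lower at an unadjusted p under 0.05, against 8.47%. Their sum was 701 to 793 TPM in WT TAC, against 854 to 1258 TPM in WT sham. Of 12 smooth muscle and pericyte markers 9 were negative (median -0.38), and of 12 ventricular myocyte markers 10 were negative (median -0.31). Of each of these 12, 2 were lower at an unadjusted p under 0.05. The part of endothelial, mural or muscle content in the collagen IV levels was not tested.

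Col6a3 (chr1:90765923-90843971, minus strand), the large chain of the collagen VI that forms beaded filaments around cells, was 6.65, 3.13, 5.53 and 4.60 TPM in WT TAC, against 7.70, 10.7, 9.59 and 9.16 TPM in WT sham. The groups did not overlap, and the difference was -0.81 ± 0.29 (adjusted p = 0.364). Its partner chains Col6a1 and Col6a2 differed by -0.21 ± 0.31 and -0.36 ± 0.34 and overlapped between the groups. Col4a2 and Col6a3 were the 2 members that lay below WT sham without overlap, and 0 lay above, against 13.7% of all genes below and 2.48% above.

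The call on these genes depended on which libraries entered the fit. The main fit takes 1 spread per gene from all 4 groups of the 2-week table, and the groups differed in spread. The median SD of log2(TPM + 1) over all genes was 0.570 in VCP TG sham, 0.308 in WT sham, 0.198 in VCP TG TAC and 0.209 in WT TAC. The part of this unequal spread in the calls was not tested. When the WT TAC and WT sham libraries were fitted without the VCP TG groups, Col4a2 (adjusted p = 0.0309) and Col6a3 (adjusted p = 0.0412) were lower after TAC, among 6.31% of 13709 genes lower. Without the 4 libraries rich in Myl7, Col4a1 (-0.997 ± 0.244, adjusted p = 0.0311), Col4a2 (-1.10 ± 0.23, adjusted p = 0.0202), Col6a3 (-0.94 ± 0.18, adjusted p = 0.0171) and the fibulin Fbln2 (-0.73 ± 0.17, adjusted p = 0.0283) were lower, among 7.4% of 14618 genes lower. Fbln2, which links elastic fibres and basement membranes, is named because of this call, after its values were seen. Leaving out WT TAC replicate 1 alone, with VCP TG sham replicates 3 and 4 kept, called 0 members. Across the 19 alternatives the adjusted p ranged from 0.0202 to 0.735 for Col4a2, from 0.0171 to 0.735 for Col6a3, from 0.0311 to 0.738 for Col4a1 and from 0.0283 to 0.805 for Fbln2, and all 4 differences stayed negative.

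Thbs1, a matricellular protein that activates latent transforming growth factor beta, had the widest difference, -2.55 ± 1.01 (adjusted p = 0.393). It was 5.90, 1.34, 1.65 and 2.32 TPM in WT TAC, against 2.24, 20.3, 30.9 and 75.0 TPM in WT sham, where replicate 1 lay at the TAC level and the other libraries far above it. Thbs4, a related thrombospondin, was 1.50, 1.58, 1.68 and 3.63 TPM in WT TAC, against 3.23, 2.03, 5.89 and 4.78 TPM in WT sham, a difference of -0.67 ± 0.34. Prg4, the joint lubricant proteoglycan, which was listed among valve, tendon and cartilage markers and is no member, was 14.8, 7.38, 3.48 and 15.6 TPM in WT TAC and 13.7, 7.17, 131 and 101 TPM in WT sham. The summed level of the 10 markers on that list was 8.90 to 23.8 TPM in WT TAC and 15.8 to 137 TPM in WT sham, with Tnmd, Acan, Col2a1, Col9a1 and Cilp2 listed at 0 in some libraries. Of the 10 markers 6 had a positive difference and 4 a negative one (median 0.06), against 64.2% of all genes negative. At an unadjusted p under 0.05, 0 of 5 tested were lower and 0 higher, against 8.47% and 2.94% of all genes. The part of such tissue in the Thbs1 levels was not tested.

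**Figure D2:**
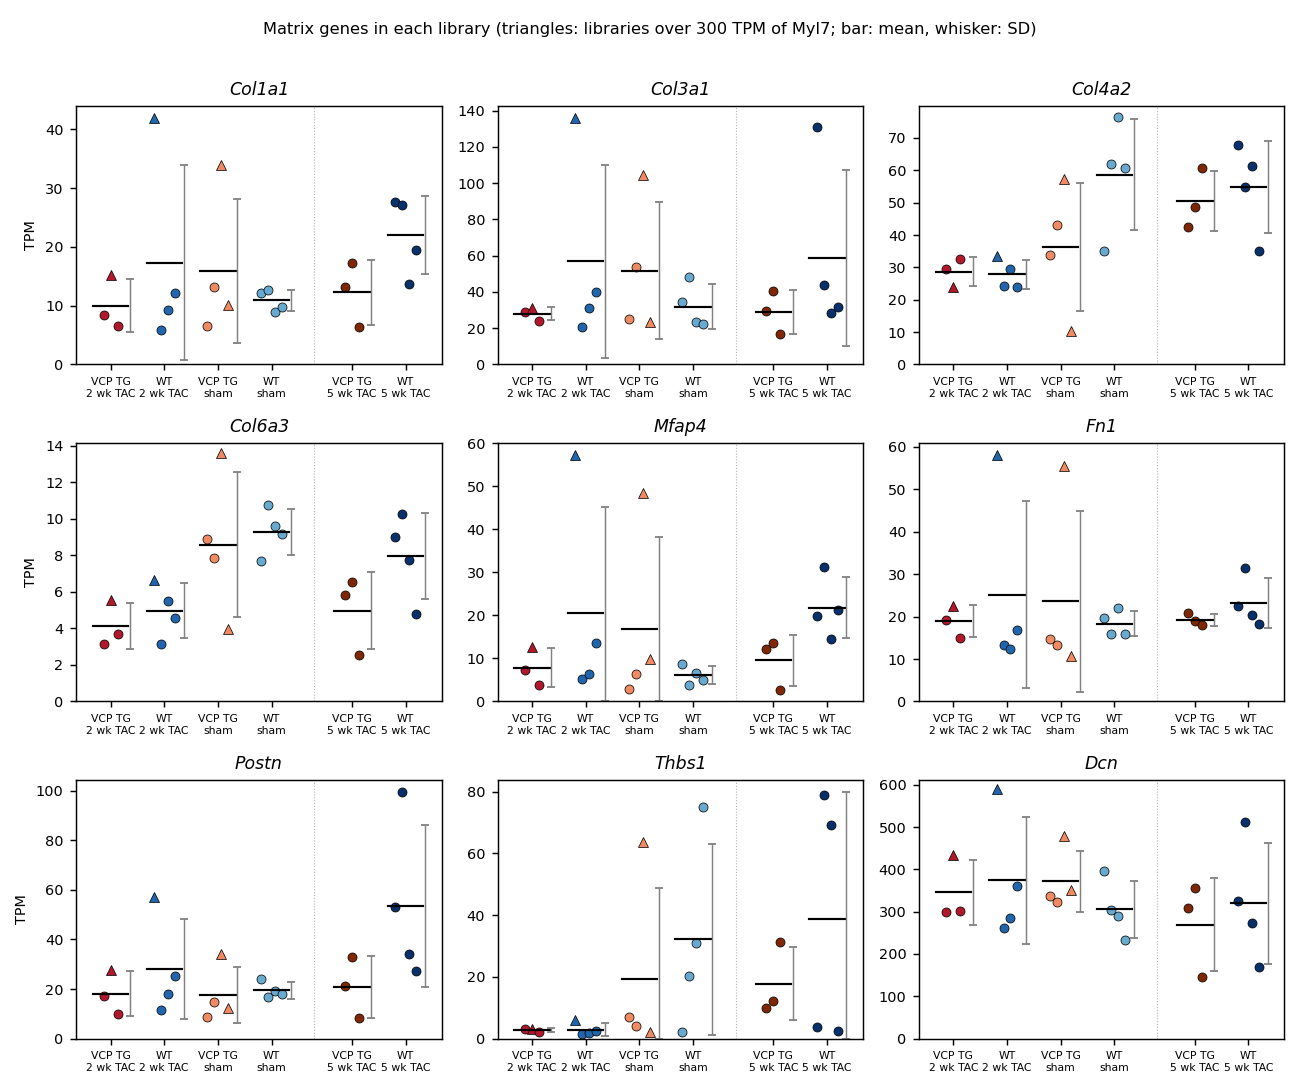
TPM of 9 matrix genes in each library (points), with the group mean (bar) and SD (whisker, cut at 0 where it would pass below), for VCP TG 2-week TAC (n = 3), WT 2-week TAC (n = 4), VCP TG sham (n = 4), WT sham (n = 4), VCP TG 5-week TAC (n = 3) and WT 5-week TAC (n = 4). Triangles are the 4 libraries with over 300 TPM of Myl7, which include the highest 2-week TAC and sham values of Col1a1, Col3a1, Fn1 and Postn, and Col4a2 and Col6a3 are lower in WT 2-week TAC than in WT sham.

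In the transgenic ventricle at 2 weeks, the VCP TG TAC libraries were set against the VCP TG sham libraries. No member passed the test in either direction, and the members' values in TAC lay largely inside the wide range of the sham group. The largest differences were the lower values of Thbs1, Col15a1, Col6a3 and elastin. In limma's test 0 of 37 members passed, against 0.772% of the 15540 genes, of which 119 were higher and 1 lower. The median log2 difference of the 38 was -0.14, beside 0.02 over all genes, and 27 of the 38 were negative, against 47.6% of all genes. Rescaling to nuclear protein-coding genes gave -0.42 for the 38 and -0.22 over all genes, with 36 of the 38 negative, against 69.4% of all genes. At an unadjusted p under 0.05, 1 member (Col6a3) was lower, against 0.772% of all genes lower.

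Col6a3 was 3.16, 5.56 and 3.71 TPM in VCP TG TAC, against 8.89, 7.86, 13.6 and 3.96 TPM in VCP TG sham. Sham replicate 4 lay inside the range of the TAC libraries. The difference was -0.82 ± 0.32 (adjusted p = 0.335), beside -0.81 ± 0.29 in WT. Without the libraries rich in Myl7 it was -1.08 ± 0.24 (adjusted p = 0.0198), the only member called there, among 0.123% of 14618 genes lower and 4.8% higher. Over 18 alternatives the adjusted p ran from 0.0198 to 1 and the difference stayed negative, from -1.19 to -0.59.

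Col1a1 was 8.41, 15.1 and 6.49 TPM in VCP TG TAC, against 6.59, 13.2, 33.9 and 10.2 TPM in VCP TG sham. Col3a1 was 28.7, 31.4 and 24.2 TPM in VCP TG TAC, against 25.2, 53.8, 104 and 23.5 TPM in VCP TG sham. Sham replicate 3 gave the highest value of both collagens, and the TAC libraries overlapped the other sham libraries. The differences were -0.46 ± 0.54 for Col1a1, -0.16 ± 0.41 for Col1a2 and -0.60 ± 0.57 for Col3a1. Postn was 17.1, 27.6 and 9.77 TPM in VCP TG TAC, against 8.67, 14.9, 34.1 and 12.4 TPM in VCP TG sham, and Fn1 was 19.3, 22.6 and 15.0 TPM in VCP TG TAC, against 14.8, 13.4, 55.6 and 10.6 TPM in VCP TG sham. Both glycoproteins overlapped between the groups and differed by 0.11 ± 0.47 and 0.00 ± 0.51. The largest of the other differences were those of Thbs1 (-1.34 ± 1.09), Col15a1 (-0.85 ± 0.44), which anchors basement membranes to the interstitial matrix, and elastin (Eln, -0.81 ± 0.49). Elastin, the stretchable core of elastic fibres, was 1.30, 2.01 and 1.62 TPM in VCP TG TAC and 2.40, 2.04, 11.9 and 2.40 TPM in VCP TG sham; it was the 1 member that lay below without overlap, and 0 lay above, against 0.676% of all genes below and 3.35% above. Without sham replicate 3, 30 of the 38 differences were positive and 8 negative, against 27.4% of all genes negative. The median was then 0.17 beside 0.16 over all genes, so the members' share was near that of all genes. Without sham replicate 1, whose Vcp went against the label, the median was -0.24 beside 0.09, with 33 negative, against 35.3% of all genes. With the mean level of olfactory and vomeronasal receptor genes as a covariate, 38 were negative, against 66.3% of all genes, with a median of -0.74 beside -0.17.

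Whether the transgene altered the matrix genes without pressure load was asked in the sham groups. No member passed the test, and the clearest differences were lower collagen IV chains and lysyl oxidase in VCP TG sham. By role, the median difference was 0.28 in the 5 fibrillar collagens (4 positive), 0.29 in the 5 proteoglycans (4 positive), -0.23 in the 6 basement membrane genes (5 negative) and -0.31 in the 3 crosslinking enzymes (3 negative). In limma's test 0 of 37 members and 0% of 15540 genes passed, and at an unadjusted p under 0.05 there were 3 members lower and 0 higher, against 2.1% and 1.87% of all genes. The groups overlapped in all 38 members, against 0.431% of all genes lying below without overlap and 0.605% above. The 3 were Col4a1 (-0.79 ± 0.35), Col4a2 (-0.86 ± 0.37) and lysyl oxidase (Lox, -0.65 ± 0.29), which crosslinks collagen and elastin. Each had an adjusted p of 1, and over 19 alternatives the lowest adjusted p of the 3 was 0.355.

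Col4a1 was 41.0, 55.1, 70.3 and 17.3 TPM in VCP TG sham, against 45.5, 72.7, 100.3 and 77.4 TPM in WT sham. Col4a2 was 33.9, 43.2, 57.4 and 10.3 TPM in VCP TG sham, against 35.2, 62.1, 76.6 and 60.6 TPM in WT sham. In both genes VCP TG sham replicate 4 was the lowest library and WT sham replicate 3 the highest. The groups overlapped. By replicate number, VCP TG sham was below WT sham in Col4a1, Col4a2 and Lox at each of the 4 numbers. No label says that the number pairs libraries. With the number as a replicate block the limma adjusted p of each was 0.946. Lox was 1.14, 1.13, 2.07 and 0.869 TPM in VCP TG sham, against 1.62, 1.95, 5.26 and 2.32 TPM in WT sham, where only VCP TG replicate 3 lay within the WT range. In the sham groups 11 of 14 endothelial markers had a negative difference, against 51.6% of all genes, and 0 passed the adjusted threshold. At an unadjusted p under 0.05, 5 of the 14 were lower and 0 higher, against 2.1% and 1.87% of all genes. The sum of the 14 was 404 to 941 TPM in VCP TG sham, against 854 to 1258 TPM in WT sham. Of 12 smooth muscle and pericyte markers 10 had a negative difference (median -0.14), and of 12 ventricular myocyte markers 8 did (median -0.19). The part of endothelial, mural or muscle content in the collagen IV levels was not tested.

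Col1a1, Col1a2 and Col3a1 differed by 0.28 ± 0.50, 0.24 ± 0.38 and 0.48 ± 0.52 between VCP TG sham and WT sham. Fn1 differed by 0.04 ± 0.47 and Postn by -0.30 ± 0.44. The remaining large differences, Thbs1 (-1.09 ± 1.01), Mfap4 (0.70 ± 0.79) and Thbs4 (-0.60 ± 0.34), were all within 2 standard errors. The median of the 38 was -0.18, beside -0.01 over all genes, with 24 negative (against 51.6% of all genes). Without VCP TG sham replicate 4 the median was 0.09, beside 0.20 over all genes, and without replicate 3 it was -0.43, beside -0.17. Without VCP TG sham replicate 1, whose Vcp went against the label, it was -0.06, beside -0.07, with 20 negative, against 58.8% of all genes.

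The genotypes were then compared after 2 weeks of TAC. The collagen, glycoprotein and proteoglycan genes of VCP TG TAC overlapped those of WT TAC in 37 of the 38 members, and elastin alone lay lower without overlap, against 2.78% of all genes; 0 members lay above, against 19% of all genes. In limma's test 0 of 37 members passed, against 0.0901% of 15540 genes (14 higher, 0 lower), and 0 reached an unadjusted p under 0.05, where 9.24% of all genes were higher and 0.335% lower. The smallest adjusted p of a member was 0.788, that of Eln, which was 1.30, 2.01 and 1.62 TPM in VCP TG TAC and 10.1, 2.33, 2.16 and 2.22 TPM in WT TAC (-0.74 ± 0.49). The other differences of the largest size were those of Mfap4 (-0.79 ± 0.86), Col3a1 (-0.62 ± 0.57), Bgn (-0.52 ± 0.38), Postn (-0.47 ± 0.47), the microfibril protein Fbn1 (-0.45 ± 0.33) and Col1a1 (-0.44 ± 0.54), all lower in VCP TG TAC and within 2 standard errors. Col1a2 and Fn1 differed by -0.13 ± 0.41 and -0.10 ± 0.51.

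The median of the 38 in that comparison was -0.11, beside 0.16 over all genes, 0.27 lower. Of the 38 differences 28 were negative, against 26.8% of all genes. Rescaling to nuclear protein-coding genes moved the median of all genes to -0.13 and that of the members to -0.49, with 35 negative, against 63.0% of all genes. Quantile normalization gave -0.05 and -0.31, with 35 negative, against 57.2% of all genes. Relative to all genes the members were lower under each of these scalings. Without WT TAC replicate 1, which carried both high Myl7 and a Vcp level against its label, the members' median was 0.08 beside 0.19. There 26 of 38 differences were positive and 12 negative, against 24.3% of all genes negative.

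The response to TAC was compared between genotypes by the interaction of genotype and surgery. No member passed the test of this difference (0 of 37, against 0.00644% of all genes, and 0 at an unadjusted p under 0.05, where 4.04% of all genes were higher and 0.972% lower), with a smallest adjusted p of 0.872. The interaction (VCP TG response minus WT response) was -0.72 ± 0.74 for Col1a1, -0.37 ± 0.56 for Col1a2, -1.10 ± 0.77 for Col3a1, -0.14 ± 0.70 for Fn1 and -0.17 ± 0.64 for Postn. It was largest for Mfap4 (-1.49 ± 1.17) and Thbs1 (1.22 ± 1.49), followed by Col4a2 (0.90 ± 0.55) and Col15a1 (-0.81 ± 0.60). By role, 5 of 6 basement membrane members had a positive interaction (median 0.55), against 70.6% of all genes. Of the 5 fibrillar collagens 4 had a negative one (median -0.37), against 29.4% of all genes. Of the 38 members 17 were positive and 21 negative, and the median over all genes was 0.22. The SE of these terms ran from 0.40 to 1.49 on the log2 scale. The median of the 38 was -0.04 with all libraries, 0.35 without VCP TG sham replicate 3 and 0.23 without WT TAC replicate 1, beside 0.22, 0.38 and 0.25 over all genes. Without the libraries whose Vcp went against the label, 16 of the 38 were negative, against 23.2% of all genes, with a median of 0.17 beside 0.30.

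**Figure D3:**
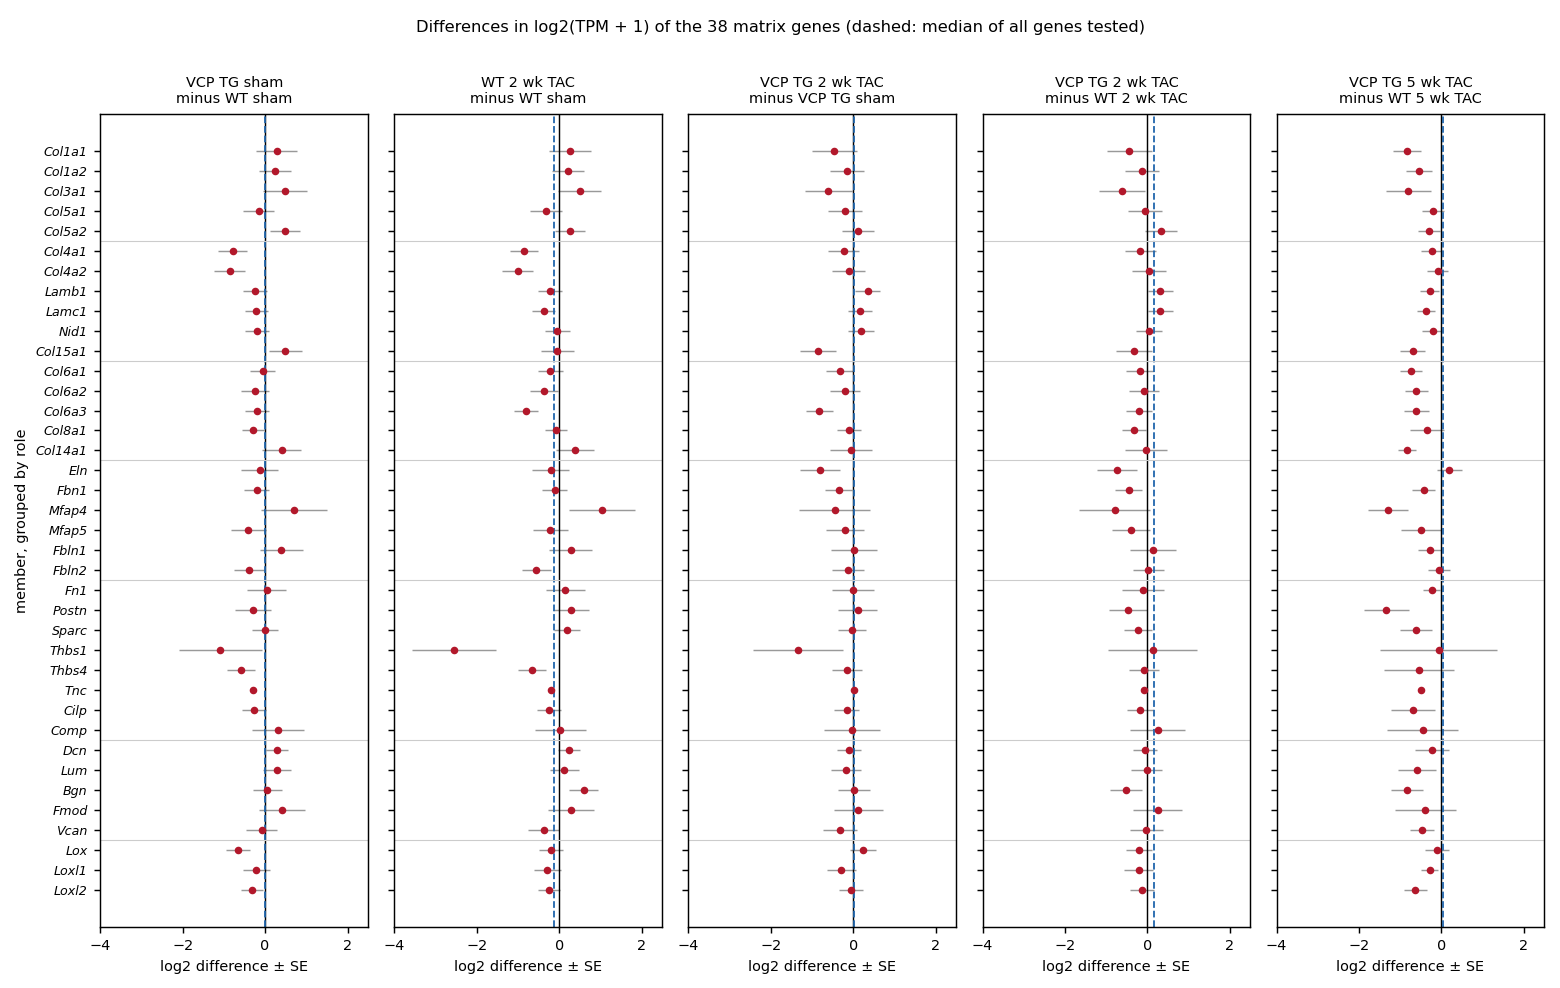
Difference in log2(TPM + 1) of each of the 38 matrix genes, with its standard error, in 5 comparisons (VCP TG minus WT, or TAC minus sham), grouped by role; Tnc was not tested within a table and has no error bar, and the dashed line is the median of all genes tested. In VCP TG minus WT after TAC, 28 of 38 members lie below 0 at 2 weeks, against 26.8% of all genes. At 5 weeks 37 of 38 do, against 45.7% of all genes.

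At 5 weeks of TAC the mean level was lower in VCP TG than in WT in nearly the whole list, with periostin, the microfibril protein Mfap4, Col14a1, Col1a1, Bgn and Col3a1 the furthest apart, but no member passed the test. The difference was negative in 37 of the 38 members, against 45.7% of all genes, and the median was -0.46, beside 0.03 over all genes; elastin was the exception (0.20 ± 0.31). The count of 37 was the same after rescaling to nuclear protein-coding genes (median -0.62, beside -0.07) and after quantile normalization (-0.49, beside -0.01). Of all genes 58.7% and 51.8% were negative there. In limma's test 0 of 37 members passed, against 0.00715% of 13986 genes, with a smallest adjusted p of 0.904. At an unadjusted p under 0.05, 7 of the 37 were lower and 0 higher, against 1.64% and 2.85% of all genes. Col14a1 and Mfap4 lay below without overlap and 0 members lay above, against 1.74% and 3.4% of all genes.

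The 7 were Postn, Mfap4, Col14a1, Col1a1, Col6a1, Col15a1 and the crosslinking enzyme Loxl2. Periostin was 21.0, 33.1 and 8.37 TPM in VCP TG TAC, against 53.1, 99.7, 34.3 and 27.3 TPM in WT TAC. The groups overlapped only in that VCP TG replicate 2 lay above WT replicate 4, and the difference was -1.33 ± 0.55, the largest of the 38. Mfap4 was 12.3, 13.6 and 2.73 TPM in VCP TG TAC, against 19.9, 31.3, 14.4 and 21.4 TPM in WT TAC, a difference of -1.29 ± 0.48 with all VCP TG libraries below all WT libraries. Col14a1, a collagen that decorates the surface of fibrils, was 2.46, 2.74 and 1.66 TPM in VCP TG TAC, against 5.66, 4.84, 3.31 and 5.85 TPM in WT TAC (-0.84 ± 0.22), also without overlap.

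Col1a1 was 13.2, 17.3 and 6.37 TPM in VCP TG TAC, against 27.6, 27.2, 13.7 and 19.5 TPM in WT TAC (-0.84 ± 0.34). Col1a2 was 15.3, 18.8 and 8.47 TPM in VCP TG TAC, against 28.5, 24.9, 15.6 and 14.7 TPM in WT TAC (-0.54 ± 0.31). Replicate 3 was the lowest VCP TG library in both genes and replicate 1 the highest WT library. Col3a1 was 29.4, 40.6 and 16.7 TPM in VCP TG TAC, against 131, 44.0, 28.6 and 31.9 TPM in WT TAC, where replicate 1 stood far above the others (-0.80 ± 0.54). Fn1 was 20.9, 18.9 and 17.9 TPM in VCP TG TAC, against 22.5, 31.5, 20.4 and 18.3 TPM in WT TAC, with overlapping groups (-0.23 ± 0.21). Bgn was 137, 189 and 66.2 TPM in VCP TG TAC, against 216, 375, 172 and 153 TPM in WT TAC (-0.84 ± 0.40).

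The median was negative in each of the 7 roles. It was -0.54 for the 5 fibrillar collagens, -0.26 for the 6 basement membrane genes, -0.61 for the 5 other collagens, -0.36 for the 6 elastic fibre genes, -0.52 for the 8 glycoproteins, -0.47 for the 5 proteoglycans and -0.28 for the 3 crosslinking enzymes. Col6a1, Col15a1 and Loxl2 differed by -0.73 ± 0.27, -0.70 ± 0.31 and -0.64 ± 0.28. Col4a1 and Col4a2, described above for WT at 2 weeks, differed by -0.23 ± 0.27 and -0.09 ± 0.25 between the genotypes at 5 weeks.

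The size of the 5-week difference depended on single libraries. VCP TG replicate 3, whose Vcp level (39.1 TPM) was the lowest of its table, was the lowest of its group in 31 of 38 members, against 62.6% of all genes, and its summed level was 686 TPM, against 1025 and 1224 TPM in VCP TG replicates 1 and 2. WT replicate 2, with a Vcp level of 123 TPM, was the highest of its group in 19 of 38 members, against 26.6% of all genes, and the summed levels of WT TAC were 1673, 1982, 1197 and 847 TPM. Leaving out 1 library at a time kept between 30 and 38 of the 38 differences negative, against 34.4% to 56.3% of all genes, with the median between -0.68 and -0.26. Without the 3 libraries whose Vcp went against the label, 2 VCP TG and 2 WT libraries were left. There 26 of 38 differences were negative, against 34.4% of all genes, and the median was -0.12, beside 0.12 over all genes. In those libraries Postn differed by -0.51 ± 0.40, Col1a1 by -0.59 ± 0.30, Mfap4 by -0.63 ± 0.25 and Col14a1 by -0.91 ± 0.23, and Thbs1 had the opposite sign (1.56 ± 0.28), all with an adjusted p above 0.5.

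Markers of other cells were read beside the matrix genes at 5 weeks, and 0 of them passed the adjusted threshold in the fibroblast, macrophage and endothelial lists. Of 24 fibroblast and myofibroblast markers, none of which was listed at 0, 19 had a negative difference (median -0.22), against 45.7% of all genes. At an unadjusted p under 0.05, 3 of 22 tested were lower, against 1.64% of all genes. The sums of the 24 overlapped, at 639 to 989 TPM in VCP TG TAC and 586 to 1371 TPM in WT TAC. Of 13 macrophage markers 11 had a negative difference (median -0.29), against the same 45.7%. At an unadjusted p under 0.05, 2 of 12 tested were lower, against 1.64% of all genes. The sum of the 13 was 96.8 to 119 TPM in VCP TG TAC, against 129 to 167 TPM in WT TAC. Of 14 endothelial markers 10 had a positive difference (median 0.17), against 54.3% of all genes. The part of fibroblast or macrophage content in the matrix levels was not tested.

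Whether the genotype difference changed between 2 and 5 weeks of TAC was asked with all 6 groups in 1 fit, in which each genotype difference stays within its own table. The difference was more negative at 5 weeks in 35 of the 38 members, against 73.4% of all genes, with a median of -0.40 beside -0.16. In limma's test 0 of 38 members passed, against 0.00612% of 16347 genes, and 0 reached an unadjusted p under 0.05, where 1.77% of all genes were lower and 0.208% higher. The largest terms were those of Eln (0.94 ± 0.66), Postn (-0.86 ± 0.76), Col14a1 (-0.81 ± 0.64), Comp (-0.70 ± 1.09), Lamc1 (-0.70 ± 0.40) and Col5a2 (-0.64 ± 0.53). For Col1a1, Col1a2, Col3a1 and Fn1 the terms were -0.40 ± 0.73, -0.41 ± 0.58, -0.18 ± 0.85 and -0.13 ± 0.64. After rescaling to nuclear protein-coding genes 23 of 38 were negative, against 46.0% of all genes, with a median of -0.17 beside 0.03. Without VCP TG 5-week replicate 3, 26 of 38 were negative, against 61.7% of all genes, and the median was -0.09, beside -0.08 over all genes. Without the libraries whose Vcp went against the label, 28 of 38 were negative, against 61.4% of all genes, with a median of -0.27 beside -0.09.

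The ratio of chains within a library does not depend on how that library was scaled. These ratios were chosen after the values were seen and are given without a test. Col4a2 stayed close to Col4a1 in every library, with a ratio of 0.597 to 0.942 while the level of each moved more than 5-fold. Col6a3 relative to Col6a1 was 0.267 to 0.458 in VCP TG 2-week TAC, against 0.459 to 0.744 in VCP TG sham, and 0.317 to 0.446 in WT 2-week TAC, against 0.478 to 0.798 in WT sham. In both genotypes the TAC range ended below the sham range, although in VCP TG the nearest values all but met. At 5 weeks the ratio was 0.329 to 0.468 in VCP TG TAC, against 0.261 to 0.527 in WT TAC. The other collagen VI ratio, Col6a2 over Col6a1, was 1.03 to 1.12 in VCP TG 2-week TAC and 0.921 to 1.06 in WT 2-week TAC, against 0.827 to 1.17 in VCP TG sham and 1.03 to 1.29 in WT sham. Col1a1 over Col1a2 was 0.502 to 0.908 in VCP TG 2-week TAC, 0.538 to 1.15 in WT 2-week TAC, 0.514 to 0.986 in VCP TG sham and 0.692 to 0.936 in WT sham, and at 5 weeks 0.752 to 0.922 in VCP TG TAC and 0.881 to 1.33 in WT TAC.

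**Figure D4:**
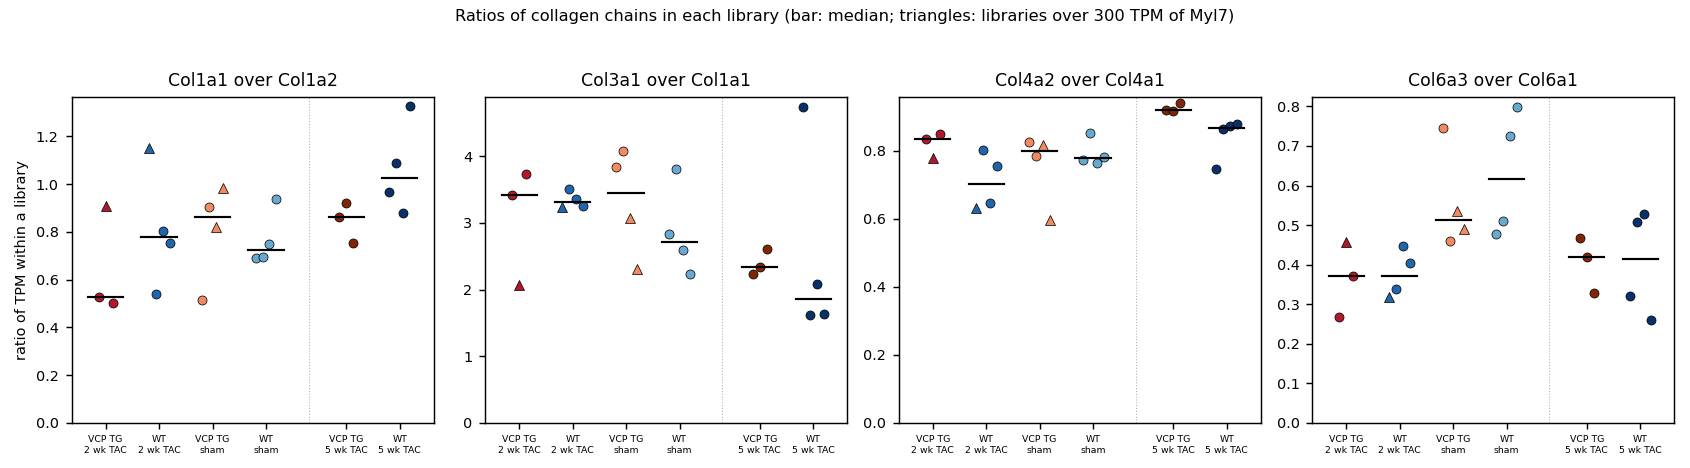
Ratio of the TPM of collagen chains within each library (points; triangles are libraries with over 300 TPM of Myl7) and the group median (bar), for the 6 groups. Col6a3 over Col6a1 is lower in the 2-week TAC groups (0.267 to 0.458 in VCP TG, 0.317 to 0.446 in WT) than in the sham groups (0.459 to 0.744 in VCP TG, 0.478 to 0.798 in WT), and Col4a2 over Col4a1 varies least.

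Lists of genes around the matrix were read in the same fits. Of the 29 genes for processing and secretion of matrix proteins, the 31 for pro-fibrotic signalling and the 24 fibroblast and myofibroblast markers, 0 passed the adjusted threshold in any of the 7 comparisons. In the WT response to 2 weeks of TAC 4 of 30 signalling genes tested were lower at an unadjusted p under 0.05 and 0 higher, against 8.47% and 2.94% of all genes, a share near that background. The 4 were the transforming growth factor beta co-receptor Tgfbr3, the matricellular signal Ccn1, Tgfb1 itself and the growth factor Pdgfd. Ccn1 was 42.7, 13.8, 9.90 and 14.9 TPM in WT TAC, against 27.8, 75.3, 48.8 and 102 TPM in WT sham (-1.66 ± 0.68, adjusted p = 0.399). In VCP TG the TAC response of Ccn1 was -1.96 ± 0.74 (adjusted p = 0.352), with 14.3, 15.0 and 16.1 TPM in VCP TG TAC and 58.9, 39.8, 294 and 20.7 TPM in VCP TG sham.

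The signalling gene nearest to a call was Ltbp1, which holds latent transforming growth factor beta in the matrix. It was 138, 62.3 and 85.7 TPM in VCP TG 2-week TAC, 41.1, 28.5, 35.1 and 48.2 TPM in WT 2-week TAC, 35.6, 21.8, 68.8 and 22.3 TPM in VCP TG sham and 31.5, 25.1, 30.7 and 34.8 TPM in WT sham. The VCP TG TAC libraries lay above all WT TAC and WT sham libraries, and VCP TG sham replicate 3 lay within their range. The TAC response in VCP TG was 1.42 ± 0.35 (adjusted p = 0.0597), and the difference from WT TAC was 1.25 ± 0.35 (adjusted p = 0.159). Angiotensinogen (Agt), the precursor of angiotensin, was 4.76, 5.39 and 5.28 TPM in VCP TG 2-week TAC, against 2.53, 0.132, 0.0699 and 0.327 TPM in WT 2-week TAC (1.99 ± 0.67, adjusted p = 0.26). Between the genotypes after 2-week TAC, 19% of all genes lay above without overlap in VCP TG. At an unadjusted p under 0.05, 2 of 30 signalling genes tested were higher and 0 lower there, against 9.24% and 0.335% of all genes. At 5 weeks the lowest unadjusted p were those of Pdgfa (-0.62 ± 0.20), the collagenase inhibitor Timp4 (0.88 ± 0.28) and the perivascular stromal marker Cd248 (-0.70 ± 0.24), each with an adjusted p of 0.904. Of the processing genes, 0 of 27 tested reached an unadjusted p under 0.05 in the sham, WT TAC, VCP TG TAC or 2-week TAC genotype comparisons. P4ha1, a subunit of collagen prolyl hydroxylase, had an interaction of -1.23 ± 0.52 (adjusted p = 0.872).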

How the data were processed

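Poly(A) RNA from left ventricles was sequenced from stranded libraries, per the labels' protocols. The authors deposited TPM values per Ensembl gene in 2 tables, of 15 and 7 libraries, normalized separately. The submitters' processing notes list, without roles, kallisto 0.43.1, STAR 2.5.4b, Trimmomatic 0.35, DESeq2 and build GRCm38. Of 30735 identifiers 30074 were named from GENCODE's annotation of GRCm38. Depth is unknown, since no counts were used, and no interval for counting error could be given.

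Groups came from the sample labels. Differences were tested on log2(TPM + 1) with limma 3.58.1 in R 4.3.3 (1 mean per group, trended and robust variance), on genes that reached 1 TPM in 3 or more libraries. P-values were adjusted by Benjamini and Hochberg's method across every gene in the fit, and 0.05 was the threshold. A fold change on this scale understates the change of low genes. One fit held the 2-week table with its 4 groups, another the 5-week table, and a further one all 6 groups, for the change of the genotype difference. Tnc was too low to be tested within a table. The fit was tested on simulated data. Figures were drawn with Python 3.11.15, pandas 2.3.3 and matplotlib 3.10.9.

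The members, the gene lists and the tests were chosen with earlier results of these data known. The text gives, in each comparison, members past a threshold, up to 6 with the largest difference at a mean of at least 1 TPM, and Col1a1, Col1a2, Col3a1, Fn1 and Postn; members with an unadjusted p under 0.05 were added after the values were seen. Of the lists around the matrix it gives counts and up to 4 genes by unadjusted p. Between the sham groups the deviations of same-numbered libraries from their group means had r of 0.107, 0.256, 0.167 and 0.154. Differently numbered libraries were not compared, so these values cannot show that the number pairs libraries, and no label says so. A replicate block by number was fitted as an alternative, and in the sham comparison it called 0 genes. Alternatives were another pseudocount, no filter, other scalings, no trend, separate fits, a replicate block, a covariate and leaving out libraries.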

Additional observations from a re-analysis of the deposited data

Results flagged for a closer look

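In groups of 4 libraries, 152 combinations of member and group were examined for a library that stands far from the others, and 5 did; chance gives about 1 in 20. All 5 were high values. VCP TG sham replicate 3 stood apart in Col14a1, at 11.8 TPM against 2.25 to 2.95 TPM in the other VCP TG sham libraries. The same library stood apart in Eln, at 11.9 TPM against 2.04 to 2.40 TPM, and in Tnc, at 0.789 TPM against 0.177 to 0.237 TPM. WT 2-week TAC replicate 1 stood apart in Eln, at 10.1 TPM against 2.16 to 2.33 TPM in the other WT TAC libraries. WT 2-week TAC replicate 4 stood apart in Thbs4, at 3.63 TPM against 1.50 to 1.68 TPM. The first 2 of these libraries, VCP TG sham replicate 3 and WT TAC replicate 1, had 2269 and 1546 TPM of Myl7, and the part of atrial tissue in their values was not tested.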

How the results depend on the processing

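The count of members called was 0 in all 7 comparisons with limma and stayed 0 with another pseudocount, no filter, other scalings, no trend, the replicate block, the covariate and each library left out. It was 2 (Col4a2 and Col6a3) in WT TAC against WT sham fitted alone, and 4 there and 1 (Col6a3) in VCP TG TAC against VCP TG sham without the libraries rich in Myl7. With both changes, chosen after seeing the data, it was 2 and 1.

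The count over all genes moved more. With a pseudocount of 0.1 it was 1 in sham, 8 in WT TAC, 2 in VCP TG TAC, 1 between genotypes after 2-week TAC and 0 for the interaction. With no filter it was 1846 in VCP TG TAC, 634 between genotypes after 2-week TAC, 24 for the interaction and 6 for the change between times. After rescaling to nuclear protein-coding genes it was 21 in WT TAC, 6 between genotypes after 2-week TAC, and 0 for the interaction, at 5 weeks and between times. Quantile normalization gave 2, 9 and 2 in WT TAC, between genotypes after 2-week TAC and for the interaction, and no trend gave 4 for the interaction. Fitted alone, the groups gave 2 in sham, 964 in WT TAC, 53 in VCP TG TAC, 8 between genotypes after 2-week TAC and 0 between times. Without libraries rich in Myl7 the counts were 1202 in WT TAC, 719 in VCP TG TAC, 640 between genotypes after 2-week TAC, and 0 for the interaction and between times. With both changes they were 1 in sham, 423 in WT TAC, 503 in VCP TG TAC, 884 between genotypes after 2-week TAC, and 0 for the interaction and between times. Without libraries whose Vcp went against the label they were 2 in sham, 17 in VCP TG TAC, 9 between genotypes after 2-week TAC, and 0 at 5 weeks and between times. With the mean level of olfactory and vomeronasal receptor genes as a covariate they were 1 in WT TAC, 0 in VCP TG TAC and 1 between genotypes after 2-week TAC. Fitted with the replicate block they were 2 in WT TAC, 5 between genotypes after 2-week TAC, and 0 for the interaction and at 5 weeks. Outside the sham groups r of same-numbered libraries ran from -0.227 to 0.131, and no label pairs them. Leaving out 1 library gave 0 to 1 in sham, 0 to 1 in WT TAC, 1 to 753 in VCP TG TAC, 1 to 15 between genotypes after 2-week TAC, 0 to 4 for the interaction, 0 to 3 at 5 weeks and 1 to 2 between times. The cause of these shifts was not tested. Groups of 3 or 4 libraries limit what could be called.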
